A study of Arabidopsis thaliana with 90 samples.

Results

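The genes described here were 150 nuclear genes of Arabidopsis thaliana whose transcript level in dark-grown seedlings at 17 °C exceeded that at 27 °C in each of 5 phytochrome lines. They were chosen by dark libraries alone. For each line, T was the log2 ratio of the mean CPM (a gene's counts scaled to 1e+06 counts per library) plus 1 at 17 °C to the mean CPM plus 1 at 27 °C, genes were ranked by the smallest T of the 5 lines, and the first 150 of 28496 nuclear genes were taken. The temperature difference in darkness was therefore fixed by the choice and is given as a description without a test. What the choice did not use was the behaviour of the same genes in red light (R, 50 µmol m−2 s−1), which was measured after 1 h and after 24 h.

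The data were poly(A) RNA-seq counts from 90 libraries of whole seedlings that were 4 days old at the end of the dark period, with 3 replicates of each combination of line, temperature and light. All lines were in the Landsberg erecta (Ler) background and all lacked functional phyA, phyD and phyE from the endogenous genes (phyA-201, phyD-1 and phyE-1 alleles). PHYD-YFP/abcde carried 35S:PHYD-YFP in the quintuple mutant, which also has phyB-1 and phyC-1. PHYD-YFP/abCde carried the same transgene with PHYC intact. Its PHYD transcript level was not the same, as given below. In aBcde the only functional phytochrome was the endogenous phyB. PHYB-CFP/abcde expressed PHYB-CFP from the PHYB promoter in the quintuple mutant, and PHYB-CFP, PHYD-YFP/abcde (the double transgenic line) held both transgenes. Each transgenic genotype was 1 selected line, the PHYD-YFP line being the highest expressor, and the 35S promoter is active in most cell types. No statement that replicates came from separate plantings was found in the sources used here, so p-values measure the spread between these libraries, which may be technical. There was no dark control of the age of the 24 h R seedlings, so 24 h of R and 1 further day of growth cannot be told apart. How far seedlings had developed after 4 days at 17 °C and at 27 °C, and temperature itself, likewise cannot be told apart.

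Seedlings germinated in darkness form yellow etioplasts, which hold protochlorophyllide bound to its light-dependent reductases (POR) but little of the photosynthetic machinery. Phytochromes, red light receptors that are switched on by light and that in the case of phyB also lose the active form with warmth, then start greening: nuclear genes for light-harvesting proteins, photosystem subunits and Calvin cycle enzymes are induced, and cell elongation in the hypocotyl is checked. Early light-induced proteins (ELIPs) are thylakoid proteins related to the light-harvesting antenna that accumulate transiently during greening and under light stress.

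To show what sequence stood before genes that shared the dark pattern and differed in their response to R, the 200 bases upstream of the transcript start are printed for 6 members. The sequences are those of the RefSeq TAIR10.1 reference, which is the Columbia accession and not Ler. ELIP2 (chr4:8418042-8418241, plus strand) and ELIP1 (chr3:8085670-8085869, minus strand) encode ELIPs. CAB3 (chr1:10473503-10473702, minus strand) and CAB1 (chr1:10477685-10477884, plus strand) encode near-identical light-harvesting chlorophyll a/b proteins of photosystem II, and the division of reads between them is uncertain. GRF7 (chr5:21793977-21794176, plus strand) encodes a growth-regulating transcription factor, and PnsL4 (chr4:18428579-18428778, minus strand) a subunit of the chloroplast NADH dehydrogenase-like (NDH) complex. Capitals mark matches on either strand to the 7 motifs searched: CCGAC, the core of the C-repeat to which cold-induced CBF factors bind, ACGTG, the core of abscisic acid-responsive elements, CACGTG, the G-box, which holds the preceding motif, CATGCA, the core of the RY element of seed genes, AAAATATCT, the evening element bound by clock factors, GATAA, the I-box core found in many light-regulated genes, and GAANNTTC, the core of heat shock elements.
ELIP2: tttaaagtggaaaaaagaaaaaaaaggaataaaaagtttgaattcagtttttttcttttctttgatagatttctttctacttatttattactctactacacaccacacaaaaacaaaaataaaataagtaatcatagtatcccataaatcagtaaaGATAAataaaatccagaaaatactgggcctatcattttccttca
ELIP1: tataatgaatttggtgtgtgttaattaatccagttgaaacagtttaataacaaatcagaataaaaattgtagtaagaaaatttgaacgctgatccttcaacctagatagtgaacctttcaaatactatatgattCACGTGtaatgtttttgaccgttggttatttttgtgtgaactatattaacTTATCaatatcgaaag
CAB3: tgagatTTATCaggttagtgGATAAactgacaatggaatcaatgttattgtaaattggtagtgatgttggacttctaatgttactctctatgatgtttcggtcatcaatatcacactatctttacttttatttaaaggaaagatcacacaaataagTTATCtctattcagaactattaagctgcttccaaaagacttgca
CAB1: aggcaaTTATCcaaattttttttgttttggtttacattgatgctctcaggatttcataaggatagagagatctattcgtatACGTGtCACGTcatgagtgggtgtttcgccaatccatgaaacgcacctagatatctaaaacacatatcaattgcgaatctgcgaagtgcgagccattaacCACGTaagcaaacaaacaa
GRF7: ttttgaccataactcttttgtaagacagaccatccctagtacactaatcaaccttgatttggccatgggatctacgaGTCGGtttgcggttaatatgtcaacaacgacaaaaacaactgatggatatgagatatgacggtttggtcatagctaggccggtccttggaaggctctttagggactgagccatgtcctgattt
PnsL4: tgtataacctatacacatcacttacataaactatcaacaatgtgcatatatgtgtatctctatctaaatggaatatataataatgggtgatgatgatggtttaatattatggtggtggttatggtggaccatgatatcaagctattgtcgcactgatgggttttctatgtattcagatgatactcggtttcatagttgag
GATAA or its reverse stood in the printed stretch of ELIP2, ELIP1, CAB3 and CAB1, the G-box stood in that of ELIP1, and PnsL4 held none of the 7 motifs. In the wider window of 250 bases before to 50 bases after the start, which all 150 members had, GATAA was found in 68% of members and 60.8% of 27431 windows of the reference, and CACGTG in 8% of members and 7.68% of all. CATGCA was found in 16.7% of members against 9.72% of all, and CCGAC in 13.3% against 15%. AAAATATCT was found in 4% of members (2.82% of all), ACGTG in 28.7% (26.7%) and GAANNTTC in 10% (11.6%). These matches describe letters in the window and were not tested.

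In darkness the median member stood at 43.1 CPM at 17 °C and 5.43 CPM at 27 °C in PHYD-YFP/abcde, at 45.5 and 4.06 CPM in PHYD-YFP/abCde, at 34.6 and 2.53 CPM in aBcde, at 33.2 and 3.36 CPM in PHYB-CFP/abcde, and at 29.9 and 3.05 CPM in the double transgenic line. These levels are the values that chose the genes. The smallest T was 5.40 for ELIP2, 4.53 for CAB3, 4.22 for GRF7, 4.03 for CAB1 and 4.01 for PORA (a protochlorophyllide reductase). It was 3.99 for AT4G22490 (a lipid-transfer protein family member), 3.63 for the MYB transcription factor gene MYB10, 3.55 for ELIP1, 3.47 for the homeobox gene WOX1 and 3.43 for OEP6 (an outer envelope protein). At the threshold, RPL9 (a plastid ribosomal protein) and AAH (allantoate amidohydrolase) lay just inside at 2.05 and 2.04, and HTA11 (a histone H2A) and FLA7 (a fasciclin-like arabinogalactan protein) just outside at 2.04 each. The median smallest T over all nuclear genes was −0.03. A pseudocount of 5 CPM in place of 1 kept 90 of the 150 genes, so the choice of lower-expressed members depends on the pseudocount.

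By the annotation, 50 members had roles in plastids: 10 encoded subunits or partners of the photosystems and the electron transport chain, 10 NDH subunits, 9 enzymes of the Calvin cycle and starch metabolism, 9 plastid ribosomal, folding or redox proteins, 7 light-harvesting proteins or ELIPs and 5 proteins of chlorophyll metabolism. The other 100 held 21 genes of the cell wall and cytoskeleton, 9 of nitrogen, nucleotide and one-carbon metabolism, 8 of transcription and hormone synthesis, 8 of lipid transfer, cuticle and desaturation, 5 of histones and DNA replication, and 49 of other or unknown role. Roles were given after the members were known. Of 16 lists of genes for other processes, the photosynthesis list held 11 members (of 44 genes), the DNA replication list 2 (of 27), the cuticle and cell wall list 1 (of 35), and the 13 others, cold-regulated genes among them, 0 of 313 genes. Members made up 150 of 28496 nuclear genes. At that share few or none would fall in lists of this size, so nothing is read from the 0. Pairs of members also stood side by side on the chromosomes. GA3OX1 and CYCA2;3 and, elsewhere on chromosome 1, TUB5 and FNR2 were direct neighbours, CAB3 and CAB1 were separated by 1 gene, CSP41A and OEP6 on chromosome 3 likewise, and on chromosome 5 AT5G13140 and EXO70C1 were direct neighbours, with 1 gene between EXO70C1 and SAG29. As the strand setting of the counting was not given in the sources used here, reads of overlapping antisense transcripts cannot be told apart from those of a gene.

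Libraries held 15010386 to 41124234 counts. PIL1, a gene that is repressed by active phytochrome, stood at 62.1 to 117 CPM in the dark libraries and at 1.34 to 46 CPM after 1 h of R. HSP70, a heat-inducible chaperone gene, stood at 5.86 to 20.5 CPM in darkness at 17 °C and at 182 to 268 CPM at 27 °C. Heat shock transcripts also set libraries in R at 27 °C apart. The 20 tested genes of the heat shock list, none of them a member, summed to 4552 to 5811 CPM after 1 h in the double transgenic line, where 16 to 17 of the 20 were at least 2-fold above the dark mean, against 1179 to 1646 CPM in the other lines and 666 to 900 CPM in darkness. After 24 h they summed to 1791 CPM in replicate 1 of PHYD-YFP/abcde, 1524 CPM in replicate 2 of PHYB-CFP/abcde and 1570 CPM in replicate 1 of the double transgenic line, and to 374 to 668 CPM in the other 12 libraries at 27 °C. PHYD transcript stood at 3852 to 37493 CPM in the lines with PHYD-YFP and at 11.8 to 588 CPM in the other lines. The 588 CPM was that of replicate 1 of aBcde after 24 h at 27 °C, where replicates 2 and 3 stood at 31.9 and 14.2 CPM. The dark means of PHYD at 17 °C and 27 °C were 4405 and 10001 CPM in PHYD-YFP/abcde and 15427 and 32564 CPM in PHYD-YFP/abCde. Between these 2 lines, phyC and the PHYD transcript level cannot be told apart. The dark means of PHYB were 131 and 167 CPM in aBcde, 460 and 1370 CPM in PHYB-CFP/abcde and 596 and 1575 CPM in the double transgenic line. Several libraries of 1 h R stood apart from the others of their group in the members with plastid roles. In PHYD-YFP/abCde at 17 °C the median change of these members from the dark mean was −0.05, 0.02 and −2.46 (log2) in replicates 1, 2 and 3. In aBcde at 27 °C it was 0.34, 0.73 and −1.16, and in PHYB-CFP/abcde at 27 °C it was 0.55, 0.52 and −0.82. All 3 replicates of aBcde at 17 °C were low after 1 h, at −1.82, −1.29 and −1.56. The libraries low in plastid-role members were also low in the 33 genes of the photosynthesis list that were not members. The median change of these genes was −2.04 in PHYD-YFP/abCde at 17 °C replicate 3, and −1.42, −1.11 and −1.41 in aBcde at 17 °C. Organelle transcripts took 0.132% of counts in the first of these and 0.19% to 0.36% in the aBcde libraries, against a median of 1.56% over all 90 libraries. In the double transgenic line at 17 °C after 1 h, replicate 3 was also low in 2 photosynthesis genes that were not members. There LHCB2.1 stood at 76.8, 88 and 21.2 CPM and PSAD-1 at 514, 486 and 236 CPM in replicates 1, 2 and 3. This library was not among those left out below as standing apart. The part of these differences in the results at 1 h was not tested.

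After 1 h of R the members still had higher levels in the 17 °C libraries, which the choice had not used. A gene was called where the edgeR quasi-likelihood test gave a Benjamini-Hochberg adjusted p below 0.05 and the difference was at least 2-fold. All 150 members were called higher at 17 °C in PHYD-YFP/abcde, where 11.6% of the 20695 tested genes were, and all 150 in PHYD-YFP/abCde (15.2% of tested genes). In aBcde 139 were called (14.1%), in PHYB-CFP/abcde 149 (13.5%) and in the double transgenic line 148 (11.9%). The median log2 difference of the members was 2.09, 3.03, 2.60, 2.82 and 2.76 in the same order of lines, and over all tested genes it was within 0.03 of 0. In 138 members the call was made in all 5 lines, as in 4.17% of tested genes. Without the 3 libraries named above that lay apart from their group, the counts were 150 in PHYD-YFP/abCde, 120 in aBcde and 148 in PHYB-CFP/abcde. In bulk seedlings, fewer cells of a type and less RNA per cell cannot be told apart.

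After 24 h of R fewer members were called higher at 17 °C: 143 in PHYD-YFP/abcde (13% of all tested genes), 108 in PHYD-YFP/abCde (12.5%), 106 in aBcde (13%), 92 in PHYB-CFP/abcde (11%) and 104 in the double transgenic line (12.3%). The median log2 differences were 1.99, 1.71, 1.60, 1.47 and 1.51. Without the 3 libraries of 24 h R with high heat shock transcripts the counts were 141 in PHYD-YFP/abcde, 92 in PHYB-CFP/abcde and 102 in the double transgenic line. In PHYD-YFP/abCde 8 members had become lower at 17 °C (10.2% of tested genes were lower). The call was made in all 5 lines for 54 members (4.36% of tested genes), of which 5 had plastid roles and 49 did not, and in 3 or more lines for 117 (10.9%). Among the 50 plastid-role members it was made for 49, 44, 29, 11 and 27 in the 5 lines, and among the 100 others for 94, 64, 77, 81 and 77. The median difference of the plastid-role members was 1.86 in PHYD-YFP/abcde and 1.93 in PHYD-YFP/abCde but 1.11 in aBcde, 0.67 in PHYB-CFP/abcde and 1.07 in the double transgenic line. That of the other members was 2.22, 1.47, 1.94, 2.11 and 1.88. The difference of these medians between lines was not tested.

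**Figure D1:**
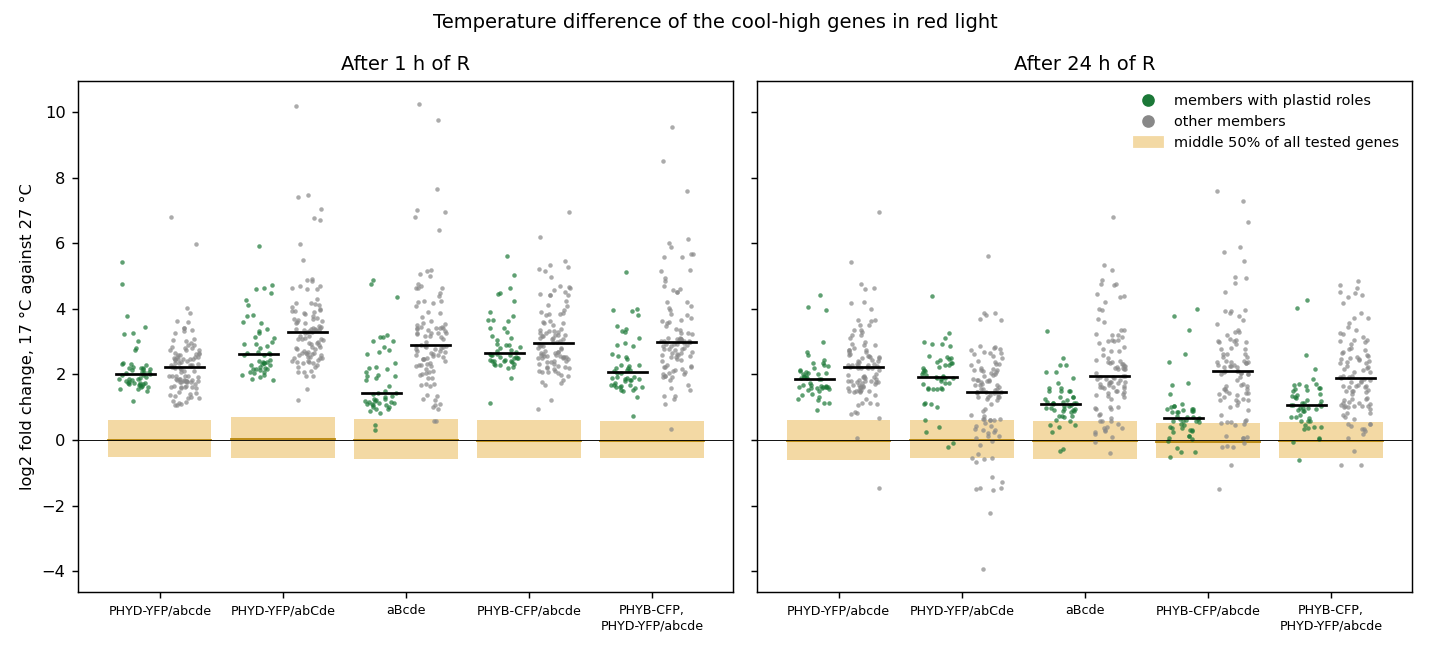
Log2 fold change between 17 °C and 27 °C for each of the 150 genes in each line, after 1 h of R (left) and 24 h of R (right), with members of plastid roles in green, other members in grey, black bars for group medians and shaded boxes for the middle 50% of all tested genes. After 1 h nearly all points lie above the boxes, and after 24 h the green points of PHYB-CFP/abcde have come down to a median of 0.67 while the grey ones stay at 2.11.

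Over 24 h of R at 27 °C, where the members started low, 66 were called higher than in darkness in PHYD-YFP/abcde (3.02% of all tested genes were), 113 in PHYD-YFP/abCde (7.56%), 95 in aBcde (11%), 86 in PHYB-CFP/abcde (9.48%) and 99 in the double transgenic line (9.23%). Called lower were 2 (0.208%), 2 (2.47%), 14 (3.45%), 11 (2.91%) and 4 (2.13%). At 17 °C, where they started high, 16 rose (2.91%) and 11 fell (0.783%) in PHYD-YFP/abcde, 34 rose (8.18%) and 37 fell (5.05%) in PHYD-YFP/abCde, 64 rose (12%) and 36 fell (6.4%) in aBcde. In the other lines 34 rose (5.6%) and 27 fell (3.19%) in PHYB-CFP/abcde, and 59 rose (10.4%) and 36 fell (4.77%) in the double transgenic line. These comparisons share the dark libraries with the choice of the genes, which favours falls at 17 °C and rises at 27 °C. The counts of PHYD-YFP/abcde rested on its replicates: without replicate 1, 26 in place of 66 rose at 27 °C, and without replicate 1 or replicate 2, 3 in place of 11 fell at 17 °C. There, 9 in place of 16 rose at 17 °C without replicate 2. In PHYB-CFP/abcde 22 in place of 34 rose at 17 °C without replicate 1, and 7 in place of 11 fell at 27 °C without replicate 2. Without the 3 libraries of 24 h R with high heat shock transcripts 63, 88 and 99 rose at 27 °C in PHYD-YFP/abcde, PHYB-CFP/abcde and the double transgenic line, and 1, 9 and 4 fell. The small numbers that fell at 27 °C moved as well, to 0 without replicate 2 in PHYD-YFP/abcde, to 0 without replicate 1 in PHYD-YFP/abCde and to 2 without replicate 1 in the double transgenic line.

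Counted over lines, 36 members rose at both temperatures in 3 or more lines (3.74% of all tested genes did), and 26 of these had plastid roles. A further 53 rose at 27 °C but not at 17 °C in 3 or more lines (3.91% of tested genes), 16 of them with plastid roles. Another 28 fell at 17 °C without a change in 3 lines at 27 °C (1.75% of tested genes), 5 of them with plastid roles. MYB10, bbx23 and PDC3 were the 3 that fell at both temperatures, as 0.821% of tested genes did. PORB was the 1 that fell at 17 °C and rose at 27 °C (0.00966%), GH9B15 the 1 that fell at 27 °C but not at 17 °C (0.676%), and 28 did none of these in 3 lines (86.5%). As these patterns use the dark libraries that chose the genes, nothing is read from the shares.

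**Figure D2:**
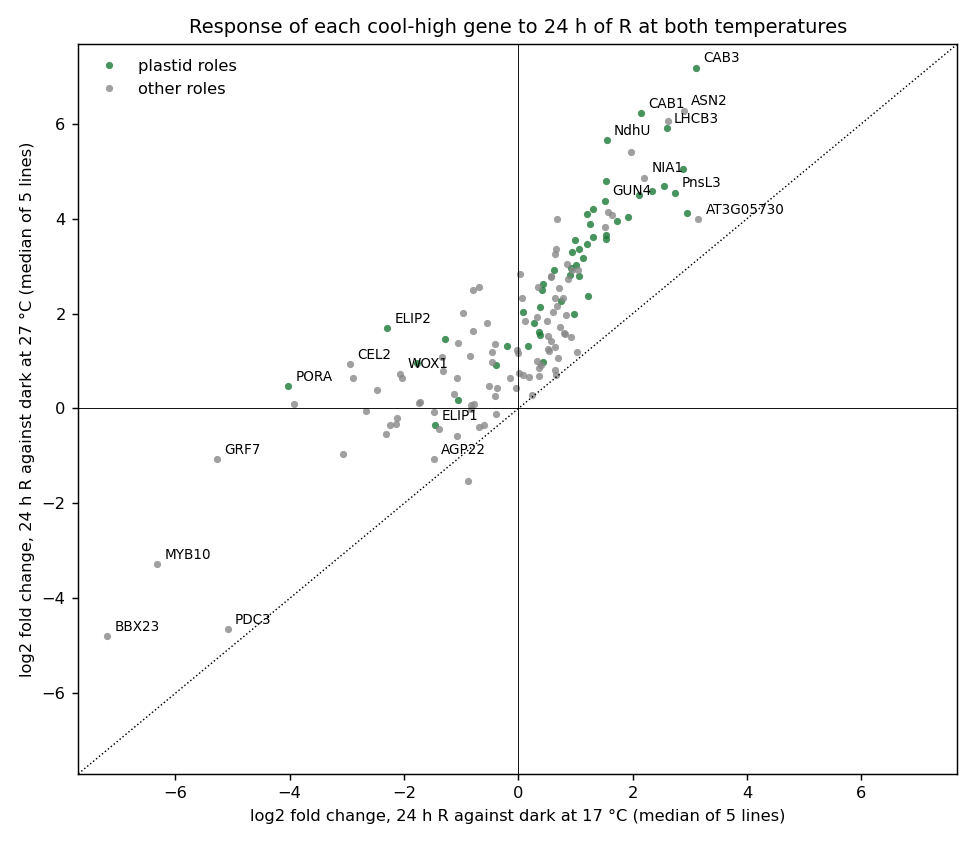
Log2 fold change of each of the 150 genes after 24 h of R against darkness at 17 °C (horizontal axis) and at 27 °C (vertical axis), each as the median of the 5 lines, with plastid roles in green and other roles in grey, and the dotted line marking equal responses. CAB3, NdhU and ASN2 lie at the top right, and MYB10, BBX23 (bbx23 in the gene table) and PDC3 at the bottom left.

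The median plastid-role member rose over 24 h at 27 °C by 1.59, 2.38, 3.97, 3.45 and 3.23 (log2, in the order PHYD-YFP/abcde, PHYD-YFP/abCde, aBcde, PHYB-CFP/abcde and the double transgenic line) and at 17 °C by 0.50, 1.00, 1.82, 0.98 and 1.63. Of the 50, 37, 45, 46, 44 and 44 were called higher at 27 °C, and 11, 25, 37, 24 and 34 at 17 °C. The median of the 100 other members changed by 0.70, 1.52, 1.11, 0.87 and 1.44 at 27 °C and by 0.09, −0.42, −0.01, −0.04 and 0.17 at 17 °C. Counts for role groups, here and below, stand against the shares of all tested genes given above for the same comparison. Those against darkness use the dark libraries that chose the genes, which favours rises at 27 °C and falls at 17 °C.

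**Figure D3:**
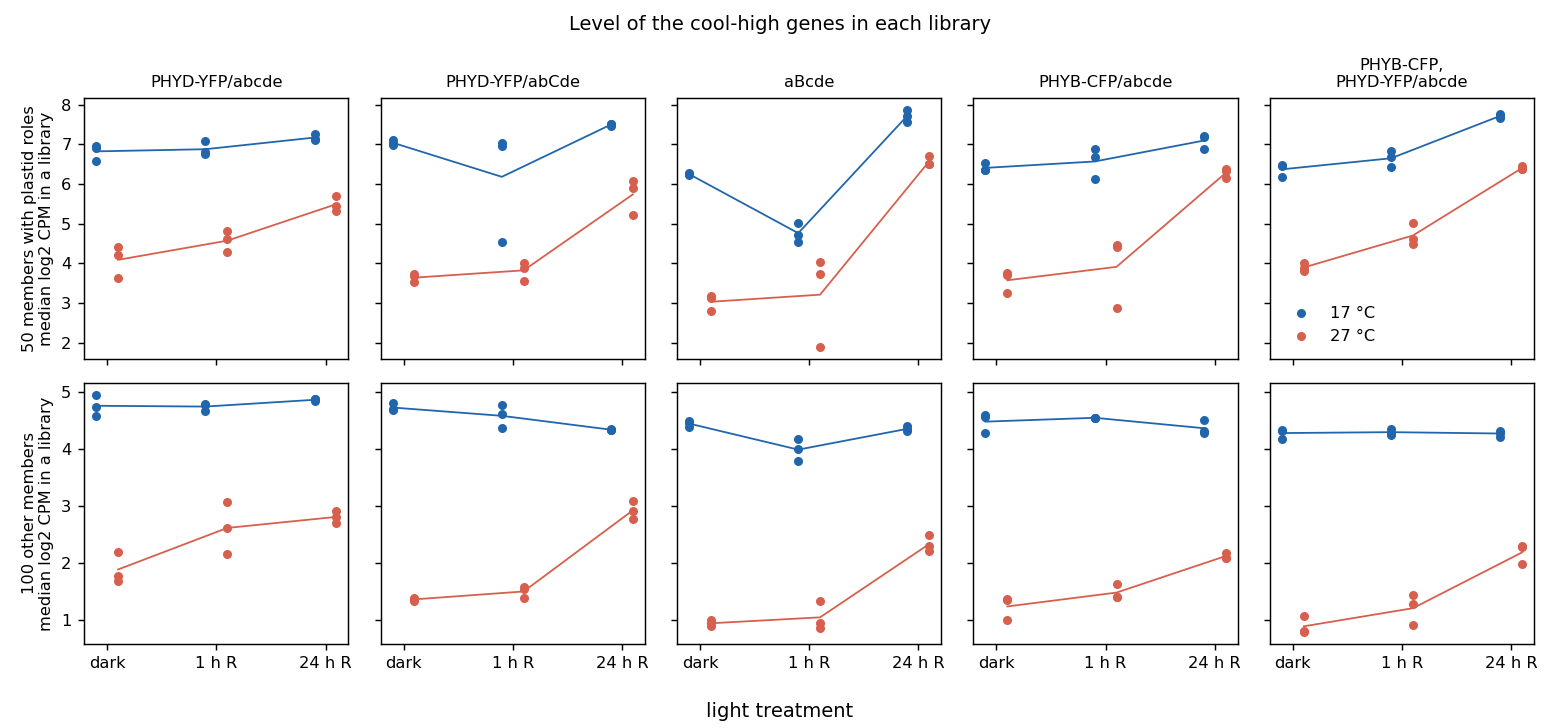
Median log2 CPM of the 50 members with plastid roles (top) and of the 100 other members (bottom) in each library, by line, with 17 °C in blue, 27 °C in red, points for libraries and lines through the means of 3 replicates. In the top row the red points climb towards the blue ones after 24 h in aBcde, PHYB-CFP/abcde and the double transgenic line, and the low 1 h libraries at 17 °C stand out in PHYD-YFP/abCde and aBcde.

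Of the 7 light-harvesting and ELIP genes, CAB3, CAB1 and LHCB3 rose at both temperatures in all 5 lines. At 17 °C 1, 3, 3, 3 and 3 of the 7 fell, namely LIL3:2, a light-harvesting-like protein gene, in all 5 lines and ELIP2 and ELIP1 in 4. CAB3 in PHYD-YFP/abcde stood at 255, 194 and 164 CPM in darkness at 17 °C and at 1742, 2000 and 1528 CPM after 24 h of R, and at 27 °C at 7.69, 7.89 and 11.1 CPM in darkness and 109, 74.6 and 151 CPM after 24 h. In aBcde it stood at 454, 489 and 459 CPM in darkness at 17 °C and 4266, 3556 and 5188 CPM after 24 h, and at 27 °C at 5.02, 6.75 and 4.29 CPM in darkness and 2095, 2058 and 2089 CPM after 24 h. All 24 h libraries of both lines lay above all dark libraries of the same temperature, and in PHYD-YFP/abcde the 27 °C libraries after 24 h lay below even the dark libraries at 17 °C. The log2 fold change at 27 °C was 3.65 ± 0.46 (SE; adjusted p = 2.3e-08, edgeR) in PHYD-YFP/abcde and 8.60 ± 0.56 (adjusted p = 5.2e-21) in aBcde, and at 17 °C it was 3.10 ± 0.43 (adjusted p = 1.3e-07) and 3.21 ± 0.43 (adjusted p = 4.1e-09).

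CAB3 in PHYD-YFP/abCde stood at 1825, 6271 and 5032 CPM after 24 h at 17 °C and at 250, 273 and 108 CPM at 27 °C. In PHYB-CFP/abcde it stood at 2148, 1921 and 2320 CPM at 17 °C and 1865, 2101 and 1462 CPM at 27 °C. The temperature difference after 24 h was thus 3.97 ± 0.45 (log2; adjusted p = 1.5e-11) in PHYD-YFP/abcde and 4.38 ± 0.45 (adjusted p = 1.3e-12) in PHYD-YFP/abCde, where the groups were far apart, and 0.24 ± 0.39 (adjusted p = 0.65) in PHYB-CFP/abcde, where they overlapped. In aBcde it was 1.06 ± 0.40 (adjusted p = 0.021), a call that was lost without each of the 3 replicates in turn, and in the double transgenic line 0.45 ± 0.40 (adjusted p = 0.35). CAB1 showed temperature differences after 24 h of 3.00 ± 0.41 and 2.98 ± 0.41 in the lines whose transgene was PHYD-YFP alone and of 0.72 ± 0.39, 0.07 ± 0.38 and 0.03 ± 0.38 in the other 3 lines, where it was not called. LHCB3, an antenna protein of photosystem II, had differences of 2.34 ± 0.37 and 2.44 ± 0.37 in those 2 PHYD-YFP lines and of −0.34 ± 0.36, −0.37 ± 0.36 and −0.61 ± 0.36 in the other 3. In aBcde at 27 °C LHCB3 went from 15.9, 22.1 and 24.6 CPM in darkness to 3148, 2989 and 3180 CPM after 24 h of R.

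At 27 °C ELIP2 and ELIP1 rose within 1 h in aBcde and in both lines with PHYB-CFP. After 24 h at 17 °C both had fallen in every line but PHYD-YFP/abcde, where the change was −0.55 ± 0.39 for ELIP2 (adjusted p = 0.43) and 1.03 ± 0.40 for ELIP1 (adjusted p = 0.079), neither of them called. In the double transgenic line at 27 °C ELIP2 stood at 0.415, 0.481 and 0.523 CPM in darkness, at 17, 25.4 and 15.7 CPM after 1 h of R and at 1.36, 1.68 and 1.34 CPM after 24 h. At 17 °C it stood at 68.7, 41.8 and 74.1 CPM in darkness, 223, 215 and 137 CPM after 1 h and 28.3, 30.9 and 25.1 CPM after 24 h. The 1 h libraries lay above both other times at both temperatures, with log2 fold changes over darkness of 5.33 ± 0.63 at 27 °C (adjusted p = 5.9e-10) and 1.64 ± 0.40 at 17 °C (adjusted p = 0.014). Those at 27 °C were the 1 h libraries with high heat shock transcripts given above, whose part in the rise was not tested. In PHYB-CFP/abcde the rise at 27 °C after 1 h was 4.38 ± 0.67 (adjusted p = 1.4e-06), and ELIP1 rose there by 4.27 ± 0.54 (adjusted p = 6.9e-09). In the double transgenic line ELIP1 rose after 1 h by 4.68 ± 0.55 at 27 °C (adjusted p = 3.5e-10) and 2.48 ± 0.42 at 17 °C (adjusted p = 3.5e-05).

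After 24 h at 17 °C ELIP2 had fallen far below its dark level in PHYD-YFP/abCde, from 142, 107 and 162 CPM to 2.54, 5.18 and 7.34 CPM. At 27 °C it stood in the same line at 6.66, 6.7 and 2.41 CPM after 24 h. The values of both temperatures overlapped, and the temperature difference after 24 h was −0.08 ± 0.47 (log2; adjusted p = 0.9) after a dark difference that was the largest of the 150 genes by the rule. In PHYD-YFP/abcde, in contrast, ELIP2 stood at 78.4, 72.5 and 68.4 CPM after 24 h at 17 °C and 4.57, 3.23 and 5.28 CPM at 27 °C, a difference of 4.07 ± 0.47 (adjusted p = 3.7e-11). The fall at 17 °C was 4.76 ± 0.48 in PHYD-YFP/abCde on the log2 scale, and the change was −2.77 ± 0.43 in aBcde and −2.29 ± 0.42 in PHYB-CFP/abcde. In the double transgenic line it was −1.13 ± 0.41, a call lost without each replicate in turn.

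**Figure D4:**
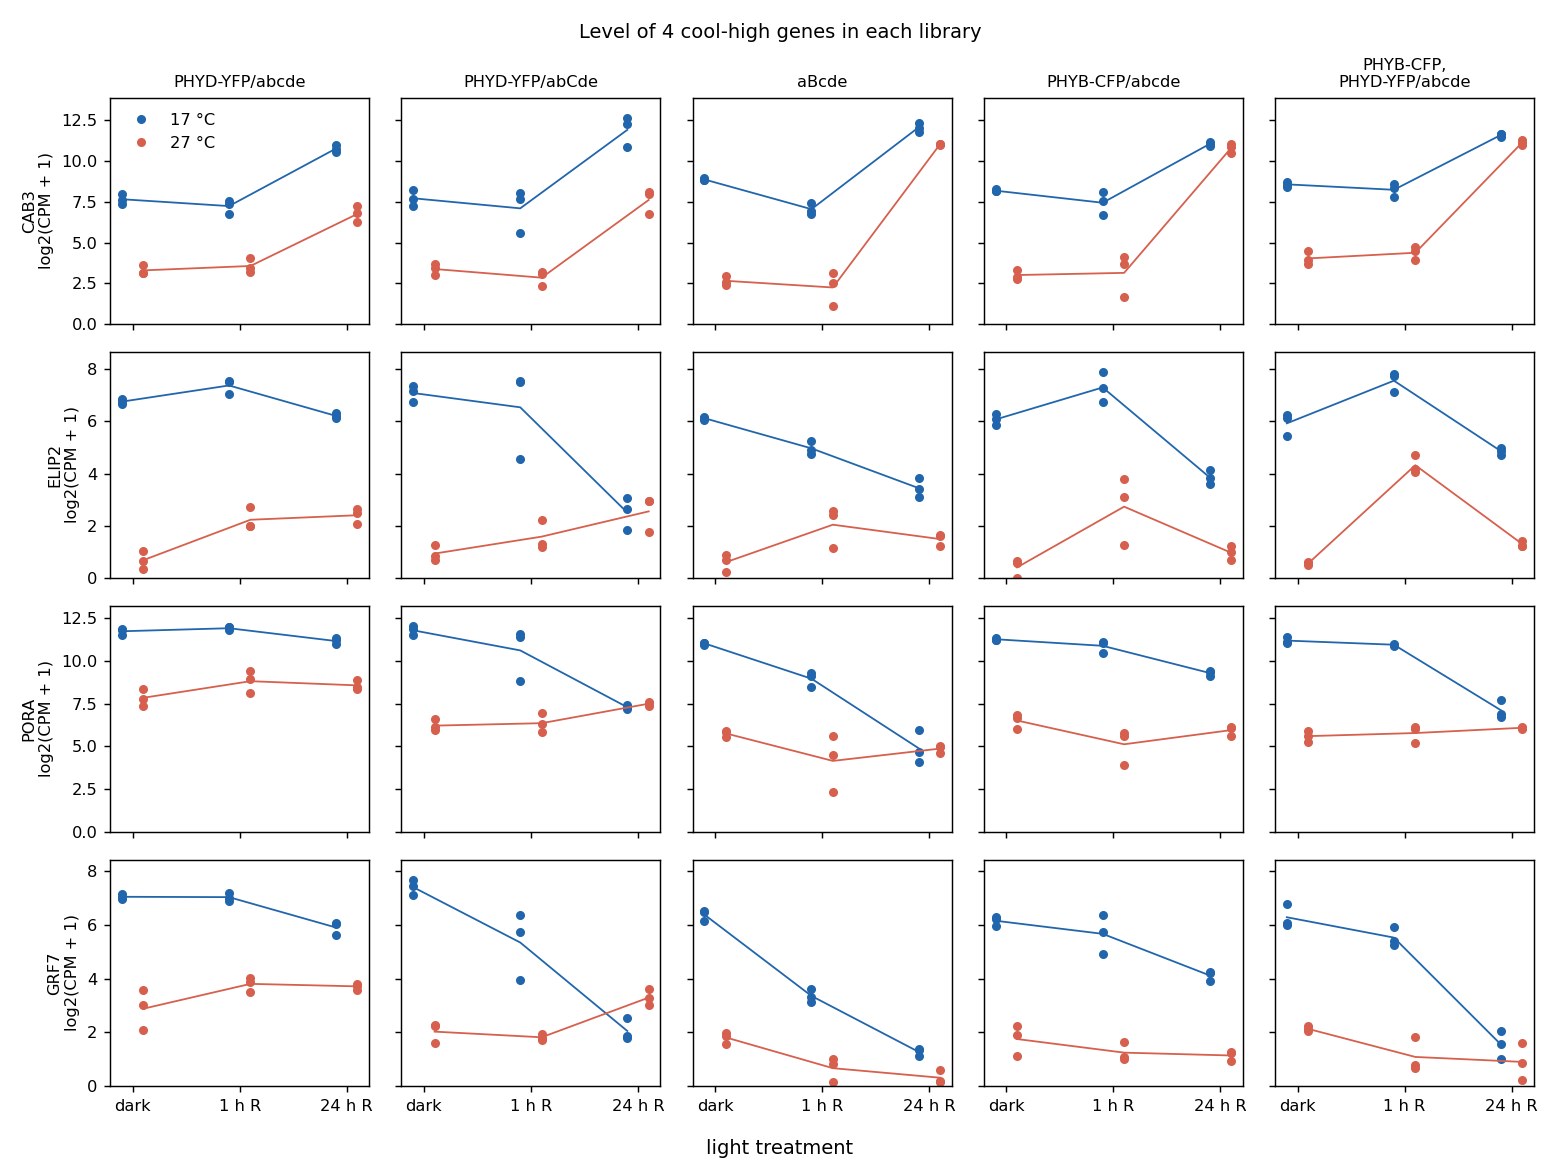
Level of CAB3, ELIP2, PORA and GRF7 as log2(CPM + 1) in each library, by line and light treatment, with 17 °C in blue, 27 °C in red and lines through the means of 3 replicates. CAB3 rose at both temperatures in every line, ELIP2 peaked after 1 h in the double transgenic line, and PORA and GRF7 fell at 17 °C to the 27 °C level or below it in PHYD-YFP/abCde, whereas they stayed far above that level in PHYD-YFP/abcde.

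Of the 5 chlorophyll genes 3, 5, 4, 4 and 4 rose over 24 h at 27 °C in the 5 lines, and at 17 °C 1, 2, 2, 2 and 2 rose and 0, 2, 2, 1 and 2 fell. PORA, the reductase that is characteristic of etioplasts and is repressed by light, stood at 17 °C in PHYD-YFP/abcde at 3607, 3690 and 2994 CPM in darkness and 2361, 2558 and 2005 CPM after 24 h. In PHYD-YFP/abCde it went from 2883, 4158 and 3736 CPM to 167, 146 and 155 CPM, and in aBcde from 2130, 1991 and 2154 CPM to 62.2, 15.8 and 24 CPM. The change was −0.57 ± 0.42 (log2; adjusted p = 0.44) in PHYD-YFP/abcde, −4.52 ± 0.48 (adjusted p = 5.1e-12) in PHYD-YFP/abCde and −5.94 ± 0.52 (adjusted p = 2e-15) in aBcde. It was −1.97 ± 0.43 in PHYB-CFP/abcde and −4.03 ± 0.47 in the double transgenic line. At 27 °C PORA rose in PHYD-YFP/abCde, from 96.1, 60.4 and 68 CPM in darkness to 187, 191 and 164 CPM after 24 h (1.27 ± 0.43, adjusted p = 0.018), a call that was lost without replicate 1 and without replicate 2. The log2 change at 27 °C was 0.69 ± 0.42 (adjusted p = 0.36) in PHYD-YFP/abcde, −0.59 ± 0.42 (adjusted p = 0.31) in PHYB-CFP/abcde and 0.47 ± 0.43 (adjusted p = 0.45) in the double transgenic line, none of them called. In aBcde at 27 °C it stood at 45.5, 59.4 and 56 CPM in darkness and 31.4, 30.1 and 23.9 CPM after 24 h (−0.91 ± 0.43, adjusted p = 0.094), so that both temperatures overlapped after 24 h (difference 0.25 ± 0.43, adjusted p = 0.64). The temperature difference of PORA after 24 h was called in PHYD-YFP/abcde (2.58 ± 0.44), PHYB-CFP/abcde (3.35 ± 0.46) and the double transgenic line (1.1 ± 0.43, adjusted p = 0.027; not called without replicate 1, without replicate 2 or without the 3 libraries with high heat shock transcripts), and in PHYD-YFP/abCde it was −0.21 ± 0.42 (adjusted p = 0.70).

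PORB, the reductase that remains in light-grown seedlings, fell at 17 °C in 3 lines and rose at 27 °C in 4. In aBcde it went from 1869, 1797 and 1832 CPM to 816, 630 and 822 CPM at 17 °C and from 132, 181 and 176 CPM to 392, 396 and 394 CPM at 27 °C. The log2 fold changes at 17 °C were −1.46 ± 0.30 in PHYD-YFP/abCde, −1.28 ± 0.30 in aBcde and −1.32 ± 0.30 in the double transgenic line, and it was not called in the other 2 lines. GUN4, which binds porphyrins and stimulates magnesium chelatase, rose at both temperatures. In aBcde it went from 60.7, 54.1 and 58.9 CPM to 173, 140 and 215 CPM at 17 °C and from 3.31, 4.82 and 4.23 CPM to 204, 222 and 208 CPM at 27 °C, where the log2 fold change was 5.68 ± 0.40. GUN4 was already higher after 1 h at 27 °C in PHYB-CFP/abcde (2.12 ± 0.35, adjusted p = 9.9e-06), the double transgenic line (1.95 ± 0.34, adjusted p = 1.7e-05) and aBcde (1.73 ± 0.38, adjusted p = 0.0015).

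NDH subunit genes were among those that rose. The chloroplast NDH complex binds photosystem I and returns electrons from ferredoxin to the plastoquinone pool. All 10 members rose over 24 h at 27 °C in each of the 5 lines, with medians of 1.75, 2.76, 5.18, 4.06 and 4.21 in the order of lines given above. Of all tested genes 3.02%, 7.56%, 11%, 9.48% and 9.23% rose there. At 17 °C 2, 8, 10, 7 and 10 of the members rose (2.91%, 8.18%, 12%, 5.6% and 10.4% of tested genes) and none fell. The dark libraries at 27 °C, where these genes were chosen as low, favour the rises. PnsL4 in aBcde stood at 17 °C at 29.9, 30.8 and 31.2 CPM in darkness and 156, 170 and 194 CPM after 24 h, and at 27 °C at 1.16, 1.93 and 1.25 CPM in darkness and 55.8, 61 and 67.2 CPM after 24 h. The increases were 2.5 ± 0.32 (log2; adjusted p = 9.7e-10) at 17 °C and 5.39 ± 0.41 (adjusted p = 5.5e-18) at 27 °C, and after 24 h the level at 17 °C remained higher by 1.5 ± 0.31. In PHYD-YFP/abcde PnsL4 went from 5.5, 4.69 and 2.69 CPM to 13.2, 13.8 and 16.5 CPM at 27 °C (1.75 ± 0.35, adjusted p = 0.00046). NdhU in aBcde at 27 °C went from 0.306, 0.12 and 0.066 CPM to 61, 68.5 and 70.3 CPM, and the fitted log2 fold change of 8.59 ± 0.64 depends on the prior count because the dark level was near 0. PnsL3 rose at 17 °C by 1.71, 2.74, 4.03, 2.40 and 3.62 in the 5 lines.

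Of the 10 photosystem and electron transport genes, 7, 9, 10, 10 and 10 rose at 27 °C (medians 1.49, 2.19, 3.99, 3.67 and 3.37) and 4, 7, 10, 7 and 9 at 17 °C (medians 0.78, 1.38, 2.11, 1.08 and 1.84). PSAH2, subunit H of photosystem I, stood after 24 h in PHYD-YFP/abCde at 940, 864 and 886 CPM at 17 °C and 117, 110 and 54.1 CPM at 27 °C. In PHYB-CFP/abcde it stood at 583, 486 and 668 CPM at 17 °C and 411, 427 and 300 CPM at 27 °C. The temperature difference was 3.26 ± 0.32 (log2; adjusted p = 2.5e-13) in the first and 0.61 ± 0.30 (adjusted p = 0.083) in the second line. FNR2, a leaf ferredoxin-NADP+ oxidoreductase, went in aBcde at 17 °C from 77.6, 75.7 and 86.6 CPM to 1040, 1411 and 1206 CPM (3.93 ± 0.37). Of the 9 Calvin cycle and starch genes 7, 8, 8, 8 and 7 rose at 27 °C and none fell. At 17 °C 0, 4, 7, 3 and 5 rose and 0, 1, 1, 0 and 1 fell. RBCS1A, a small subunit of Rubisco, went in aBcde at 27 °C from 561, 704 and 745 CPM to 5394, 5572 and 5617 CPM, and its log2 fold change at 17 °C was −0.09, 0.80, 1.37, 0.44 and 0.75 in the 5 lines, called in aBcde. Of the 9 plastid ribosome, folding and redox genes 5, 7, 9, 8 and 9 rose at 27 °C. At 17 °C 1, 1, 5, 2 and 5 rose.

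**Figure D5:**
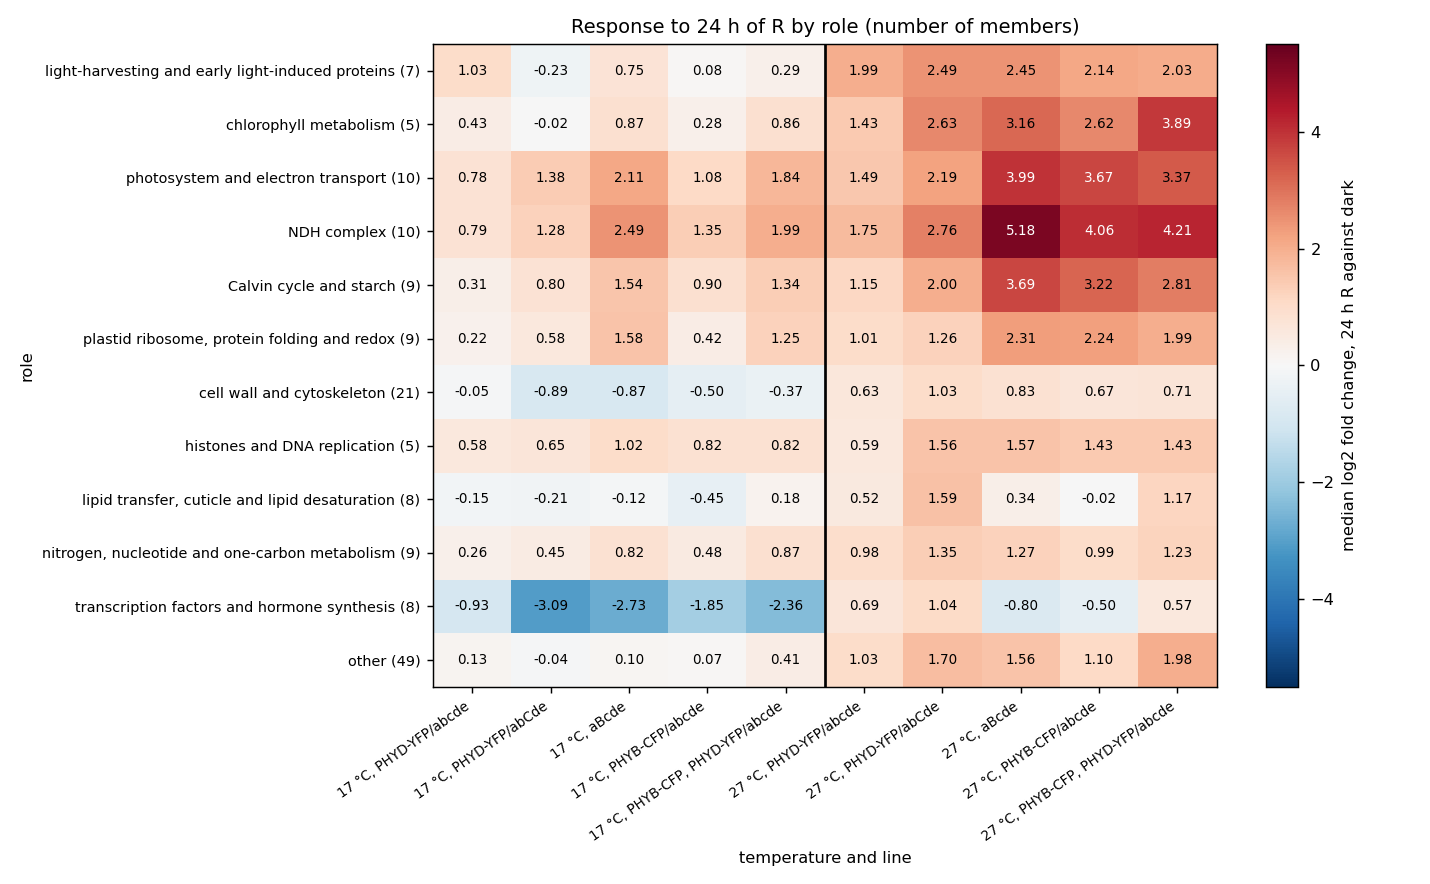
Median log2 fold change after 24 h of R against darkness for each role group (rows, with the number of members) in each line at 17 °C (left 5 columns) and 27 °C (right 5 columns), with red for higher and blue for lower in R. NDH genes reach 5.18 in aBcde at 27 °C, and the transcription factor and hormone group reaches −3.09 in PHYD-YFP/abCde at 17 °C.

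For comparison, the 33 photosynthesis genes of the list that were not members rose over 24 h at 27 °C in 21, 26, 33, 33 and 33 cases (medians 1.26, 1.71, 3.45, 3.18 and 2.93) and at 17 °C in 25, 30, 32, 25 and 31 cases (medians 1.24, 2.1, 2.13, 1.55 and 2.02). After 24 h they were higher at 17 °C in 17, 30, 1, 0 and 1 cases, with median differences of 1.07, 1.66, 0.22, −0.28 and 0.07. The list was chosen with results of these data known, and no test of a difference between it and the members was made.

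Of the 9 genes of nitrogen, nucleotide and one-carbon metabolism 3, 7, 7, 4 and 6 rose at 27 °C and 2, 2, 4, 2 and 4 at 17 °C. ASN2, an asparagine synthetase, went in aBcde at 27 °C from 0.858, 0.301 and 1.72 CPM to 207, 199 and 220 CPM, and at 17 °C from 18.4, 21.5 and 18.7 CPM to 339, 449 and 422 CPM. The log2 fold changes were 7.78 ± 0.43 (adjusted p = 1.2e-24) and 4.37 ± 0.33. NIA1, a nitrate reductase, went in the same line at 27 °C from 11.4, 15.8 and 19.9 CPM to 784, 729 and 969 CPM, and its temperature difference after 24 h was 0.06, −0.55, 0.20, −0.77 and −0.34 in the 5 lines, none called. GSTU24, a glutathione transferase gene, was carried by single libraries: after 24 h at 27 °C it stood at 212, 7.66 and 7.21 CPM in PHYD-YFP/abcde, 4.1, 171 and 38.2 CPM in PHYB-CFP/abcde and 152, 5.93 and 4.48 CPM in the double transgenic line. Its log2 fold change at 27 °C in PHYD-YFP/abcde was 3.86 ± 0.77 with all libraries and 0.35 without replicate 1. In the double transgenic line it was 2.57 with all libraries and −0.94 without replicate 1. The libraries with the highest GSTU24 in each line were the 3 with high heat shock transcripts, in which HSP101 stood at 204, 190 and 197 CPM, against 15.5 to 25.8 CPM in the other libraries of these groups. With those 3 left out the log2 fold change of GSTU24 was 0.52, 1.58 and −0.82 in PHYD-YFP/abcde, PHYB-CFP/abcde and the double transgenic line.

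Of the 8 transcription factor and hormone genes, a group put together after the members were known, 4, 7, 7, 6 and 7 fell over 24 h at 17 °C and none rose, with medians of −0.93, −3.09, −2.73, −1.85 and −2.36. GRF7 stood at 17 °C in PHYD-YFP/abCde at 139, 173 and 202 CPM in darkness, at 81.6, 52.6 and 14.3 CPM after 1 h and at 2.43, 4.74 and 2.6 CPM after 24 h. In aBcde it stood at 88.8, 69.9 and 91.2 CPM, then 7.79, 9.06 and 11.1 CPM, then 1.51, 1.61 and 1.15 CPM. In PHYD-YFP/abcde it stood at 141, 132 and 123 CPM in darkness and 65.8, 64.3 and 48.6 CPM after 24 h. The groups did not overlap in any of these lines, and the changes over 24 h were −5.72 ± 0.44 (log2; adjusted p = 1.5e-17), −5.86 ± 0.47 and −1.15 ± 0.35 (adjusted p = 0.019), the last of which was lost without replicate 1 and without replicate 2. At 27 °C GRF7 rose in PHYD-YFP/abCde from 3.66, 2.01 and 3.79 CPM to 8.58, 11.3 and 7 CPM (1.49 ± 0.42, adjusted p = 0.0047), so that after 24 h its level at 17 °C was the lower one (−1.46 ± 0.42, adjusted p = 0.0026; not called without replicate 1).

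MYB10 fell at 17 °C in all 5 lines and at 27 °C in the 3 lines with phyB. In PHYD-YFP/abCde at 17 °C it went from 115, 139 and 161 CPM to 0.578, 0.891 and 0.102 CPM (−8.05 ± 0.58), in PHYB-CFP/abcde from 46.7, 51.8 and 55.8 CPM to 3.38, 3.76 and 2.51 CPM (−4.00 ± 0.45) and in PHYD-YFP/abcde from 154, 133 and 96.1 CPM to 38.5, 44.2 and 27.4 CPM (−1.80 ± 0.39). The B-box transcription factor gene bbx23 went in PHYD-YFP/abCde at 17 °C from 110, 161 and 173 CPM to 0.231, 0.279 and 0 CPM, and stood at 2.16, 3.73 and 2.02 CPM after 24 h at 27 °C (temperature difference −3.92 ± 0.81). In aBcde at 27 °C it went from 4.53, 6.45 and 7.33 CPM to 0 in all 3 libraries, which is at least 41.6-fold lower when a floor of 3 counts per library is used. WOX1, which acts in leaf blade outgrowth, fell at 17 °C by 1.70, 3.72, 1.88, 2.06 and 2.54 on the log2 scale in the 5 lines. GA3OX1, which makes bioactive gibberellin, went in aBcde at 17 °C from 46.4, 35.6 and 43.1 CPM to 8.39, 4.94 and 6.11 CPM, and its log2 change was −0.72 in PHYD-YFP/abcde, under 2-fold, and −2.47, −2.68, −1.63 and −2.12 in the other lines. CIL, a CCT motif gene of the same group, rose at 27 °C by 1.56, 1.85, 2.02, 2.54 and 2.23, and its temperature difference after 24 h was called in no line.

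PDC3, a pyruvate decarboxylase gene, fell at 17 °C from 8.41, 11.6 and 8.17 CPM to 0, 0.279 and 0.51 CPM in PHYD-YFP/abCde, and after 24 h at 27 °C it was at 0 in all libraries of aBcde, PHYB-CFP/abcde and the double transgenic line. As its dark means at 27 °C were 0.352, 0.498 and 0.167 CPM in these lines, its calls at 27 °C rest on few counts. The members at 0 in every library of a group numbered at most 4 in a comparison, and setting them to the floor of 3 counts per library moved a median of the members by at most 0.08.

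Of the 21 cell wall genes, 20, 13, 18, 19 and 20 were higher at 17 °C after 24 h of R in the 5 lines, and 1 was lower in PHYD-YFP/abCde. At 17 °C 0, 1, 4, 1 and 4 rose and 2, 9, 7, 6 and 7 fell over 24 h, and at 27 °C 3, 10, 8, 6 and 9 rose and 1, 0, 4, 3 and 0 fell. GH9B15, a family 9 glycosyl hydrolase of the kind that includes endoglucanases, stood after 24 h in PHYB-CFP/abcde at 32.9, 39.6 and 28.5 CPM at 17 °C and 0.905, 0.678 and 0.718 CPM at 27 °C, a log2 difference of 5.45 ± 0.44. AGP22, an arabinogalactan peptide gene, went in aBcde at 17 °C from 67.9, 76.6 and 63.7 CPM in darkness to 105, 91.1 and 91.3 CPM after 1 h and 13, 11.3 and 19.5 CPM after 24 h. At 27 °C it stood there at 2.57, 4.76 and 3.83 CPM in darkness and 0.534, 0 and 1.2 CPM after 24 h, so that it fell at both temperatures and its temperature difference after 24 h was 4.75. In PHYD-YFP/abCde that difference was 0.74 (adjusted p = 0.047), under 2-fold.

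XTH32, a xyloglucan-modifying enzyme gene, rose at 27 °C by 1.94, 3.36, 3.11, 2.17 and 2.72 and was still higher at 17 °C by 2.57, 1.67, 3.01, 2.30 and 3.35 after 24 h. CEL2, another family 9 glycosyl hydrolase gene, had 24 h changes at 17 °C of −1.23, −4.19, −3.46, −2.36 and −2.94, all called. The allergen and extensin family gene AT2G34700 stood at 0.616 CPM or less in every library at 27 °C. In PHYB-CFP/abcde it stood after 24 h at 5.43, 3.7 and 3.11 CPM at 17 °C and at 0, 0 and 0.0553 CPM at 27 °C. Of the 8 genes of lipid transfer, cuticle and desaturation none rose and 2, 3, 3, 3 and 3 fell over 24 h at 17 °C, and 2, 5, 3, 3 and 4 rose at 27 °C. The lipid-transfer gene AT4G22490 fell at 17 °C by 1.46, 4.45, 3.43, 1.89 and 2.90 on the log2 scale.

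All 5 genes of histones and DNA replication were higher at 17 °C after 24 h in each line, with median differences of 2.39, 1.96, 3.02, 2.35 and 2.46. Genes of the DNA replication list that were not members shared this. Of these 25 genes 24, 22, 21, 22 and 20 were higher at 17 °C, with medians of 1.75, 1.55, 2.18, 1.89 and 1.95. CDT1A, which licenses replication origins, stood after 24 h in aBcde at 17.2, 25.2 and 18.3 CPM at 17 °C and 2.55, 2.84 and 1.87 CPM at 27 °C. Of the 49 members of other or unknown role 3, 6, 16, 6 and 15 rose and 2, 11, 11, 7 and 11 fell at 17 °C, and 19, 37, 27, 24 and 28 rose at 27 °C. Among them AT3G05730, annotated as a defensin-like protein, rose at both temperatures and kept the difference. In PHYD-YFP/abCde at 17 °C it went from 81.4, 82.3 and 66 CPM in darkness to 44.9, 37.7 and 13.6 CPM after 1 h and 286, 433 and 503 CPM after 24 h, and at 27 °C from 0.488, 0.47 and 0.621 CPM in darkness to 7.71, 11.6 and 5.49 CPM after 24 h. Its temperature difference after 24 h was 4.61 ± 0.38, 5.63 ± 0.40, 4.40 ± 0.37, 3.95 ± 0.38 and 4.73 ± 0.38 in the 5 lines. SAG29, a sugar transporter gene of the SWEET family, stood after 24 h in aBcde at 10, 12.6 and 7.99 CPM at 17 °C and 0.119, 0.517 and 0.268 CPM at 27 °C (5.18 ± 0.54), with no call for R at 17 °C in any line.

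After 1 h of R few members differed from darkness, with the exception of aBcde at 17 °C. At 17 °C none of the 150 was called in PHYD-YFP/abcde (0.0338% of all tested genes were called in either direction), where 3 had an unadjusted p under 0.05 and DESeq2 and limma called 0. In PHYD-YFP/abCde 7 were called (1.38%), a number that was 1 without replicate 3 and 17 without replicate 1, and in PHYB-CFP/abcde and the double transgenic line 1 (0.362%) and 2 (0.585%). Without replicate 1 or replicate 2 the count in PHYB-CFP/abcde was 0, and without replicate 3 it was 2, while in the double transgenic line it was 1 without replicate 1 and 0 without replicate 2. In aBcde 82 members were called (7.69% of tested genes), 3 higher and 79 lower, and 46 of the 50 plastid-role members were among those that fell. Without replicate 1 the count in aBcde was 37. These falls stand beside the low photosynthesis list and the low organelle share of all 3 libraries, given above, whose part in them was not tested. The choice by dark libraries also favours falls at 17 °C after 1 h, for single genes as well. Nothing is therefore read from the direction of these calls.

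Single genes in aBcde at 17 °C after 1 h were CAB3, which went from 454, 489 and 459 CPM to 123, 171 and 107 CPM (−1.81 ± 0.41, adjusted p = 0.0007), PORA, which went to 350, 623 and 566 CPM (−2.03 ± 0.43, adjusted p = 0.00035), and GRF7 (−3.16 ± 0.39, adjusted p = 7.3e-09). GRF7 also fell after 1 h in PHYD-YFP/abCde (−1.79 ± 0.36, adjusted p = 0.00073). Its lowest library there was replicate 3, which stood apart and without which fewer calls were made in this line. The gene bbx23 fell after 1 h in aBcde at both temperatures, by 3.09 ± 0.42 at 17 °C (adjusted p = 1.1e-07) and 3.32 ± 0.59 at 27 °C (adjusted p = 4.8e-05) on the log2 scale. At 27 °C it also fell in PHYB-CFP/abcde (−3.10 ± 0.48, adjusted p = 1.7e-06) and the double transgenic line (−2.11 ± 0.49, adjusted p = 0.0015).

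At 27 °C the choice of the genes by dark libraries favours rises after 1 h, so nothing is read from the direction of the calls. After 1 h 15 members were called in PHYD-YFP/abcde (0.319% of all tested genes), all higher, but 0 without replicate 1, 2 without replicate 2 and 35 without replicate 3. None was called in PHYD-YFP/abCde (0.164%), where 20 had an unadjusted p under 0.05, 15 of them higher, and DESeq2 called 2 and limma 1. The count was 3 there without replicate 3. In aBcde 12 were called (1.77%), 8 higher and 4 lower, and 2 without replicate 1 or without replicate 2. In PHYB-CFP/abcde 15 were called (2.36%), 14 of them higher, and 8 without replicate 1. In the double transgenic line 20 were called (3.62%), 19 of them higher, with 9 left without replicate 1 and 3 without replicate 2. In these 3 libraries the heat shock genes were high as well, HSP101, a chaperone gene, standing at 458, 603 and 456 CPM after 27.2, 23.9 and 22 CPM in darkness and at 45.2 to 83 CPM in the other lines. The part of this in the calls was not tested. AT4G16140, a member of the cell wall group, was among the genes higher after 1 h, with 0.138, 0.0602 and 0.0581 CPM in darkness and 0.687, 1.57 and 0.881 CPM after 1 h in the double transgenic line (3.55 ± 0.81, adjusted p = 0.0011). XTH32 rose there by 2.05 ± 0.50 (adjusted p = 0.0025).

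Between 1 h and 24 h of R, a comparison of libraries that the choice did not use, members were called in both directions at 17 °C and more often higher than lower at 27 °C. At 17 °C 15 were higher (2.94% of tested genes) and 10 lower (1.11%) after 24 h in PHYD-YFP/abcde, 47 higher (9.18%) and 42 lower (7.19%) in PHYD-YFP/abCde, 75 higher (16.5%) and 34 lower (12.2%) in aBcde. The aBcde counts rest on the 3 libraries of 1 h R that were low in plastid-role members, the photosynthesis list and organelle share, as given above, and 44 of the 75 had plastid roles. The part of this in the rises was not tested. In the other lines 31 were higher (4.99%) and 27 lower (3.56%) in PHYB-CFP/abcde, and 49 higher (9.46%) and 31 lower (4.64%) in the double transgenic line. At 27 °C PHYD-YFP/abcde had 14 higher (1.15%) and PHYD-YFP/abCde 106 (7.09%), against 89 (10%) in aBcde, 83 (8.47%) in PHYB-CFP/abcde and 83 (6.71%) in the double transgenic line. Lower at 27 °C were 2 (0.101%), 2 (2%), 13 (3.13%), 18 (2.91%) and 6 (2.69%) in the same order of lines, and of the 18 in PHYB-CFP/abcde 16 were among the 100 members without plastid roles. Without replicate 2 PHYD-YFP/abcde had 0 of these, PHYD-YFP/abCde 1, aBcde 8 and the double transgenic line 3, and PHYD-YFP/abcde had 1 without replicate 1 and 4 without replicate 3. In PHYD-YFP/abcde the counts at 17 °C were 8 higher and 4 lower without replicate 1 and 4 lower without replicate 2, and at 27 °C 7 higher without replicate 1 and 4 without replicate 2. In PHYB-CFP/abcde at 17 °C 19 were higher without replicate 2. The 3 libraries that stood apart were in these comparisons too. Without them PHYD-YFP/abCde had 32 higher and 36 lower at 17 °C. The counts higher at 27 °C were then 86 in aBcde and 81 in PHYB-CFP/abcde. Without the 3 libraries with high heat shock transcripts 10, 84 and 85 were higher at 27 °C in PHYD-YFP/abcde, PHYB-CFP/abcde and the double transgenic line, and 1, 15 and 7 lower.

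Whether the 24 h response itself differed between lines was tested as the difference of each line's response from that of PHYD-YFP/abcde, whose libraries these 8 contrasts share. Each contrast also uses the dark libraries of both lines, which chose the genes. How far that choice moved the counts was not tested, so nothing is read from their excess over the shares. At 17 °C 27 members differed in PHYD-YFP/abCde (2.69% of tested genes), all with the more negative response, 60 in aBcde (6.83%; 32 more positive and 28 more negative), 4 in PHYB-CFP/abcde (0.58%) and 33 in the double transgenic line (3.48%). At 27 °C 9 differed in PHYD-YFP/abCde (1.15%), 77 in aBcde (6.35%; 65 more positive), 51 in PHYB-CFP/abcde (3.23%; 43 more positive) and 42 in the double transgenic line (2.76%; 40 more positive). The median difference of the response at 27 °C was 0.79, 1.16, 0.96 and 1.1 (log2) in these 4 lines. The counts moved with single replicates: at 17 °C they were 17, 23, 0 and 10 in the 4 lines without replicate 1, 18, 24, 0 and 10 without replicate 2, and 29, 75, 7 and 55 without replicate 3. At 27 °C they were 5, 48, 18 and 11 without replicate 1, 3, 45, 13 and 8 without replicate 2, and 47, 80, 76 and 73 without replicate 3. Without the 3 libraries with high heat shock transcripts they were 6, 70, 31 and 32 at 27 °C.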

How the data were processed

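The deposited table held counts per gene, which the authors made from trimmed poly(A) reads (FastQC, Trimmomatic) with STAR on TAIR10 and htseq-count. The strand setting of the counting was not given in the sources used here. From these counts CPM was computed over the whole column for the choice of the 150 members, whose identity, like the gene lists, was fixed with earlier results of these data known. Organelle, tRNA and rRNA genes and genes under 5 counts in more than 75% of libraries were removed, which left 20695. edgeR 4.0.16 (R 4.3.3, TMM, quasi-likelihood test, no replicate block) was fitted to all 90 libraries with 30 group means. Calls needed a Benjamini-Hochberg adjusted p below 0.05 over all tested genes and a 2-fold change. Printed levels are TMM-scaled CPM, errors of log2 fold changes are standard errors, and n = 3 libraries per group. Fold changes of groups near 0 depend on the prior count of the edgeR fit, which was left at its default. The prior count of 2 was used for log2 CPM values only.

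Alternatives were DESeq2 1.42.0, limma 3.58.1 on quantile-normalized values, other count filters, the replicate block, each comparison's own 6 libraries, leaving out replicates, and other rules for the members. Leaving out 3 libraries of 1 h R, and leaving out 3 libraries of 24 h R with high heat shock transcripts, were chosen after seeing the data. Genes named were the members ranked 1 to 15, the 2 just inside and 2 just outside the threshold, the 6 highest and 6 lowest by median 24 h response at each temperature, the 4 highest and 4 lowest for 1 h, the 5 smallest and 5 largest by median temperature difference after 24 h, members of a gene list, and neighbouring members. LIL3:2 was named after its values were seen. The scripts were tested on simulated data.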

Additional observations from a re-analysis of the deposited data

Results flagged for a closer look

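The 24 h response to R differed between lines for some of the 150 genes, by a test of the difference itself (each line's 24 h response minus that of PHYD-YFP/abcde, edgeR quasi-likelihood test, adjusted p below 0.05 and at least 2-fold). At 17 °C the numbers were 27 in PHYD-YFP/abCde, 60 in aBcde, 4 in PHYB-CFP/abcde and 33 in the double transgenic line. At 27 °C they were 9, 77, 51 and 42. All 8 contrasts share the PHYD-YFP/abcde libraries and use dark libraries that chose the genes. Each of the 8 numbers moved by more than 1.5 times when at least 1 of the replicate numbers was left out.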

How the results depend on the processing

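The counts of members higher at 17 °C after 1 h and 24 h of R stayed within 1.5 times of their value under each alternative that was run. Counts of the responses to R moved as follows, the lines being named in the order used in the report. In the 1 h response at 17 °C the 7 calls of PHYD-YFP/abCde became 4 with limma on quantile-normalized values, 3 with the replicate block, 0 with its own 6 libraries and 1 without the 3 libraries of 1 h R that stood apart. The 1 call of PHYB-CFP/abcde became 0 with limma and 2 for members chosen with a pseudocount of 5, and the 2 calls of the double transgenic line became 1 with limma. In the 1 h response at 27 °C the 15 calls of PHYD-YFP/abcde became 24 with DESeq2, 5 with limma, 5 with the replicate block, 6 with its own 6 libraries and 7 with pseudocount 5, the 0 calls of PHYD-YFP/abCde became 2 with DESeq2, 1 with limma and 2 with its own 6 libraries, the 12 of aBcde and the 15 of PHYB-CFP/abcde became 1 and 6 with their own 6 libraries, and the 20 of the double transgenic line became 10 with pseudocount 5. Of the falls over 24 h at 27 °C, the 2 in PHYD-YFP/abcde became 1 with no filter, 1 with the replicate block, 0 with its own 6 libraries and 1 with pseudocount 5, the 2 in PHYD-YFP/abCde 1 with pseudocount 5, and the 11 in PHYB-CFP/abcde 7 with its own 6 libraries. Of the differences from PHYD-YFP/abcde, the 4 of PHYB-CFP/abcde at 17 °C became 2 with DESeq2 and 1 with limma, and the 9 of PHYD-YFP/abCde at 27 °C became 15 with DESeq2. Without the 3 libraries of 24 h R with high heat shock transcripts the 51 of PHYB-CFP/abcde at 27 °C became 31, the 2 falls over 24 h and the 2 between 1 h and 24 h in PHYD-YFP/abcde at 27 °C became 1 each, and GSTU24 in the double transgenic line reversed to −0.82. The cause was not tested. Pseudocount 5 kept 90 of the 150 members.

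Leaving out 1 replicate number in turn gave 1 to 17 calls after 1 h at 17 °C in PHYD-YFP/abCde, 37 to 81 in aBcde, 0 to 2 in PHYB-CFP/abcde and 0 to 2 in the double transgenic line, and at 27 °C 0 to 35, 0 to 3, 2 to 14, 8 to 17 and 3 to 29. After 24 h at 17 °C it gave 9 to 18 rises and 3 to 8 falls in PHYD-YFP/abcde and 22 to 35 rises in PHYB-CFP/abcde. After 24 h at 27 °C it gave 26 to 47 rises and 0 to 1 falls in PHYD-YFP/abcde, 0 to 2 falls in PHYD-YFP/abCde, 7 to 13 in PHYB-CFP/abcde and 2 to 3 in the double transgenic line. Between 1 h and 24 h it gave 8 to 15 rises and 4 to 11 falls at 17 °C in PHYD-YFP/abcde, 19 to 39 rises in PHYB-CFP/abcde, and 4 to 11 rises at 27 °C in PHYD-YFP/abcde, where 0 to 4 fell, against 1 to 2 in PHYD-YFP/abCde, 8 to 11 in aBcde and 3 to 6 in the double transgenic line. Differences from PHYD-YFP/abcde ranged from 17 to 29, 23 to 75, 0 to 7 and 10 to 55 at 17 °C and from 3 to 47, 45 to 80, 13 to 76 and 8 to 73 at 27 °C. Of 1315 results of named genes, 1 reversed: GSTU24 in the double transgenic line at 27 °C ranged from −0.94 to 3.22 with 1 replicate left out. Replicate numbers are shared by all groups in the labels, but deviations from the group means correlated above 0.1 for every shared number in 0 of 40 pairs of groups. These correlations over many genes cannot show whether a number marks something shared by some genes. The 3 libraries of 1 h R that stood apart were all replicate 3. LHCB2.1, a light-harvesting gene that was not a member, was lowest in replicate 3 of every 1 h group. PSAD-1, a photosystem I gene, was lowest in replicate 3 of some of these groups only. The replicate block changed 36 calls of named genes to no call, DESeq2 22 and limma 90, and with 2 replicates left the call was lost for 213, 214 and 69. With 15010386 counts in the shallowest library, levels under 1 CPM rest on few counts.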
